A study of Mus musculus with 4 samples.

Results

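The hippocampus of female offspring exposed to estriol (E3) before birth was compared with that of offspring of vehicle-treated dams (CT), site by site, over every cytosine read at least 5 times in both libraries. These were 2226271 CpG, 4834090 CHG and 13435222 CHH sites (H stands for A, C or T), from 2 of the 4 libraries of the study. All animals were wild-type CD-1 mice, an outbred stock. The dams carried a mini-osmotic pump that released 50 µl of E3 at 0.46 mg/ml in DMSO, or DMSO without E3, over 7 days from gestation day 9. The labels give the offspring an age of 8 weeks, whereas the study places the brain expression work at a later age, and neither says whether a library held 1 animal or several. Methyl-MiniSeq, a form of reduced representation bisulfite sequencing, sampled cytosines near the cut sites of TaqαI and MspI. With 1 library per group there was no replicate check and no SD, and each test sets 1 library against the other rather than E3 against vehicle.

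Mammalian DNA is methylated mainly at CpGs, which are methylated in the same pattern on both strands because the maintenance enzyme DNMT1 copies the mark after replication. CpG-dense promoters stay free of it in most tissues. There are known exceptions. Imprinted genes carry the mark at a control region on the allele of 1 parent, genes of the inactive X chromosome carry it at promoters of the silent copy in females, and many germline genes carry it on all copies in somatic cells. Neurons also gain methylation outside CpGs after birth, mostly at CAC, which DNMT3A sets.

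The E3 library was the deeper one. CpG sites had a median of 27 reads in E3 and 9 reads in CT, and 69.3% of them had 20 or more reads in E3 against 11% in CT. CHG and CHH sites had medians of 29 and 10 reads. All intervals given are 95% Wilson intervals and cover counting error only. Where reads were summed over the sites of a region, a read was counted once at each CpG it covers. Intervals from such sums are therefore too narrow and p-values too small. At single sites, neighbouring + strand CpGs of the Rbpms tile named below had 25 and 50 reads in E3 and 10 and 20 in CT. Whether a fragment was counted more than once at a site was not tested. If so, p-values of single sites would be too small as well.

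The largest differences that were present on both strands are shown first, with their sequence. The genome was divided into tiles of 1000 bases, reads were summed over the CpG sites of each tile with at least 5 sites, and a tile counted as called where the libraries were 10 or more percentage points apart and the Benjamini-Hochberg adjusted p of Fisher's exact test (2-sided) was under 0.05. Of 128710 tiles, 12243 were called higher and 11207 lower in E3, which is 18.2%. Among the 79636 tiles with at least 3 sites on each strand, 6126 (7.69%) were called and also differed by at least 10 points in the same direction on each strand, 3033 higher and 3093 lower. Of all tiles with 3 sites a strand, 6861 differed by 10 points in the same direction on each strand and 5367 in opposite directions. The tiles below are, in each direction, the first 3 of the 10 largest calls on both strands whose sequence could be printed. They were picked by size from these same site counts, so calls and gaps at their sites are no separate check. Over all CpG sites, 11% were called by the single-site test given below. Sequences are those of mm10, on the + strand, and the measured CpGs are in capitals.

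fall 1, outside genes and 2148 bases from the predicted gene Gm20005, chr5:149649925-149650008: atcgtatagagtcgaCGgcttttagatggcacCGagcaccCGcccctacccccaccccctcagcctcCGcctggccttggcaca

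fall 2, an intron of Ralgds, chr2:28526131-28526309: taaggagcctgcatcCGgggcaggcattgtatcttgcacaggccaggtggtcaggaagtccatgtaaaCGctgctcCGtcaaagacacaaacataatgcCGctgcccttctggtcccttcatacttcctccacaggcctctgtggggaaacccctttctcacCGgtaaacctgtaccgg

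fall 4, 803 bases from 4930488B22Rik and within its promoter window, chr1:184711510-184711709: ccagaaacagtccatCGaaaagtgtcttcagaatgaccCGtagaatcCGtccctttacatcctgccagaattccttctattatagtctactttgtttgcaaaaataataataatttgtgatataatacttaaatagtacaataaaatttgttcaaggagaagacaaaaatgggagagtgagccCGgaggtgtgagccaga

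rise 1, an intron of Trmt2b, chrX:134228648-134228745: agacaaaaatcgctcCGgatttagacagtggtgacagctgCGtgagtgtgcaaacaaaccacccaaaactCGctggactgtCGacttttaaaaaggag

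rise 2, coding sequence of Syp, chrX:7641123-7641192: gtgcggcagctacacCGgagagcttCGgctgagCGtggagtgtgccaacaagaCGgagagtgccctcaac

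rise 3, an intron of Col27a1, chr4:63258236-63258386: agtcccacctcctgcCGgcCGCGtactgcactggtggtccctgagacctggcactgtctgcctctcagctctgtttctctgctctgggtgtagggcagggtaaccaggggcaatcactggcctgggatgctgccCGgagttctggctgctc

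At the fall 2 tile, in Ralgds, which encodes an exchange factor that links Ras to Ral, 27.4% of 252 reads were methylated in E3 (22.2 to 33.2%) and 93.4% of 91 reads in CT (86.4 to 96.9%). All 8 sites were lower in E3 and all 8 were called. Their levels ran from 10.5 to 47.4% in E3 and from 75 to 100% in CT, so the libraries did not overlap at any of them. Several neighbouring CpGs had the same number of reads, 34 on the + strand and 38 on the − strand in E3, so few fragments lay behind a tile. The fall 1 tile rested on the fewest reads, 15% of 40 in E3 (7.06 to 29.1%) and 82.9% of 41 in CT (68.7 to 91.5%). Its 1 site that was not called, on the − strand of the first CpG, was at 0% in E3 and 14.3% in CT, while the + strand of the same CpG was at 20% and 100%.

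In the fall 4 tile the difference was limited to the inner CpGs. In E3, 31.6% of 177 reads were methylated (25.2 to 38.8%), and in CT 94.9% of 78 (87.5 to 98.0%). The 4 called sites were those of the inner CpGs, on each strand, at 0 to 3.45% in E3 and 84.2 to 100% in CT. The first CpG, on the same + strand reads, was at 96.7% in E3 and 85.7% in CT, and the last, on the − strand reads, was at 89.7% and 100%.

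The largest rise lay on chromosome X, in an intron of Trmt2b, the gene of a tRNA methyltransferase. There 81.7% of 327 reads were methylated in E3 (77.1 to 85.5%) and 10.7% of 84 reads in CT (5.74 to 19.1%). All 6 sites were called, at 61.8 to 95.8% in E3 and 0 to 40% in CT. Syp, also on chromosome X, encodes synaptophysin, a membrane protein of synaptic vesicles. Its tile had 65.9% of 232 reads methylated in E3 (59.6 to 71.7%) and 0 of 73 in CT. There 3 reads of 73 would be 4.11%, and the upper Wilson bound was 4.999%. The CT library was at 0% at all 7 sites and the E3 library at 41.2 to 78.9%. The Col27a1 tile, in the gene of a fibrillar collagen, was at 84.8% of 99 reads in E3 (76.5 to 90.6%) and 19.05% of 42 reads in CT (9.98 to 33.3%), with 5 of 6 sites called.

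**Figure D1:**
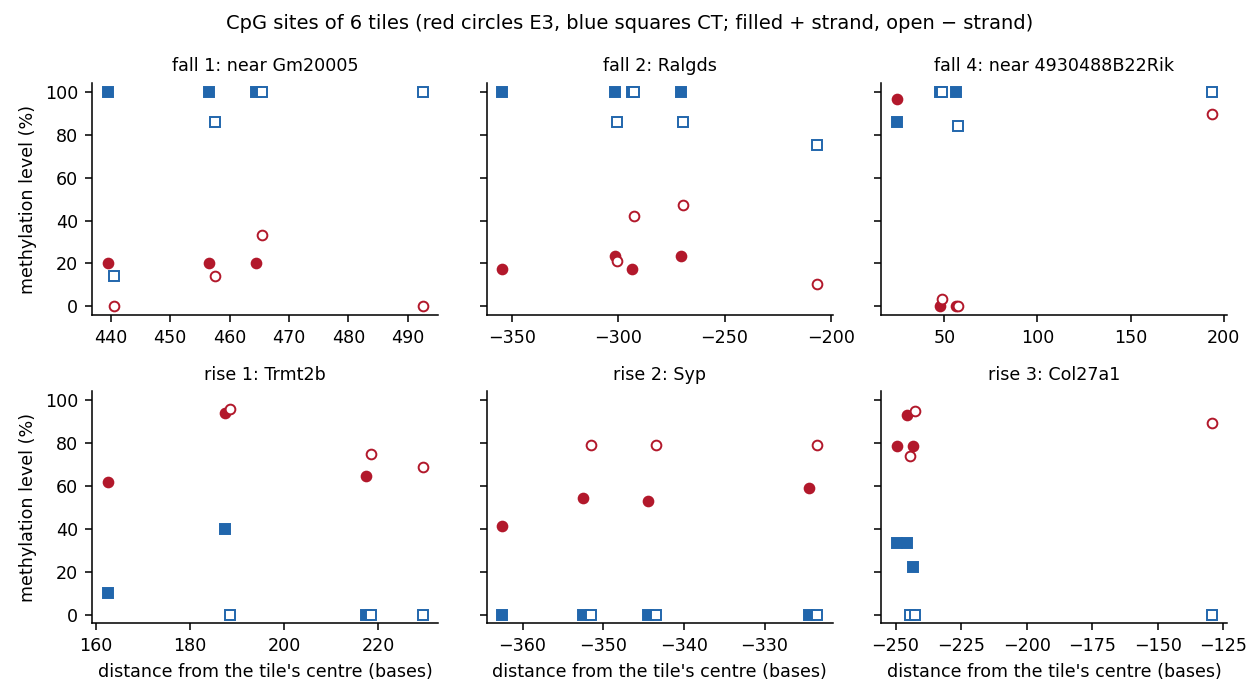
Methylation level (%) of each measured CpG site of 6 tiles against its distance in bases from the centre of the tile, with 1 point per site and library (red circles, E3; blue squares, CT; filled, + strand; open, − strand). In the Syp tile all 7 sites are at 0% in CT and at 41.2 to 78.9% in E3, and in the fall 4 tile the outer CpGs are high in both libraries.

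The other rises were of like size. Polr3a, which encodes the largest subunit of RNA polymerase III, had an intron tile at 92.8% in E3 and 27.0% in CT. In coding sequence lay the tiles of Gas2l1, an actin and microtubule linker (70.9% and 6.50%), Elapor1, an endosome and lysosome protein (80.8% and 16.7%), and Rbpms, an RNA-binding protein, where 12 of 17 sites were called (91.3% and 25.8%). Tenm4, a teneurin of neuronal contacts, had an intron tile at 69.8% and 5.56%. A tile on chromosome 8 (82.5% and 20.7%) and one on chromosome 10 (69.8% and 9.15%) lay outside genes, 3268 bases from Gm39271 and 74178 bases from Aldh8a1. The CT levels rested on 48 summed reads at Elapor1, 58 at the chromosome 8 tile and 72 at Tenm4. The other tiles of this paragraph had 111 to 333. At Elapor1 and the chromosome 8 tile the median was 6 CT reads a site.

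Falls of 57.1 to 65.4 points completed the list. The promoter tile of Mlf2 was at 17.7% in E3 and 76.5% in CT, with 9 of 12 sites called. Intron tiles of Fbxo16, an F-box gene (39.04% and 97.3%), and Rere, an atrophin family corepressor (13.8% and 70.8%), and an exon tile of Caskin2, a scaffold protein gene (18.6% and 76.6%), fell as well. A repeat-masked tile of 9 sites shared by the atypical MAP kinase gene Mapk4 and D730045A05Rik was at 31.6% and 97.04%. The tiles outside genes lay 13731 bases from P4ha1 (13.3% and 76.1%) and 8834 bases from Vmn1r53 (29.9% and 88.6%). The CT levels of these falls rested on 81 to 149 summed reads, fewest at Mlf2, where the median was 7 CT reads a site. None of the 20 tiles held a site called against its direction, which picking tiles by large differences on both strands made likely.

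The CHG and CHH sites of the same tiles were also summed. They come from the same 2 libraries and can lie on the same reads as the CpG sites, so they are no independent measure. In tiles called higher on both strands with at least 20 non-CpG sites, their pooled level was 2.51% in E3 and 1.80% in CT (3013 tiles, median difference 0.63 points). In tiles called lower it was 2.23% and 3.37% (3076 tiles), and the median difference was -0.00328 points. Tiles that were not called had 2.23% and 2.25% (101891 tiles, median difference 0.30 points).

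A CpG on both strands gives 2 measurements of the same mark from separate reads. Of 503685 CpGs read on both strands, 11.1% of strands were called, 8713 CpGs were called in the same direction on both, 4531 in opposite directions, and 85693 were called on 1 strand and not on the other. The direction was thus shared by 65.8% of the CpGs called on both strands. Higher and lower calls were unequal in number and differed with CpG density, as given below. The share that this alone would give was not taken. The levels themselves were close between strands, with Pearson's r across CpGs of 0.96 in E3 and 0.85 in CT, whereas the differences had an r of 0.07. At 20 or more reads on each strand in both libraries, these r were 0.97, 0.89 and 0.15. On chromosome X the levels had an r of 0.88 in E3 and 0.64 in CT. These are descriptions across CpGs that share 2 libraries.

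The direction was also compared between CpG sites on opposite strands at growing distance, with at least 10 reads a site in both libraries. Called sites differed in the same direction in 64.3% of pairs at the same CpG, 63.3% at 1 to 25 bases, 58.3% beyond 100 and up to 200 bases, 57.9% beyond 500 and up to 1000 bases and 51.2% beyond 5000 and up to 10000 bases. Levels stayed alike over much longer stretches, with an r of 0.92 in E3 and 0.83 in CT beyond 100 and up to 200 bases, where the r of the differences was 0.02.

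**Figure D2:**
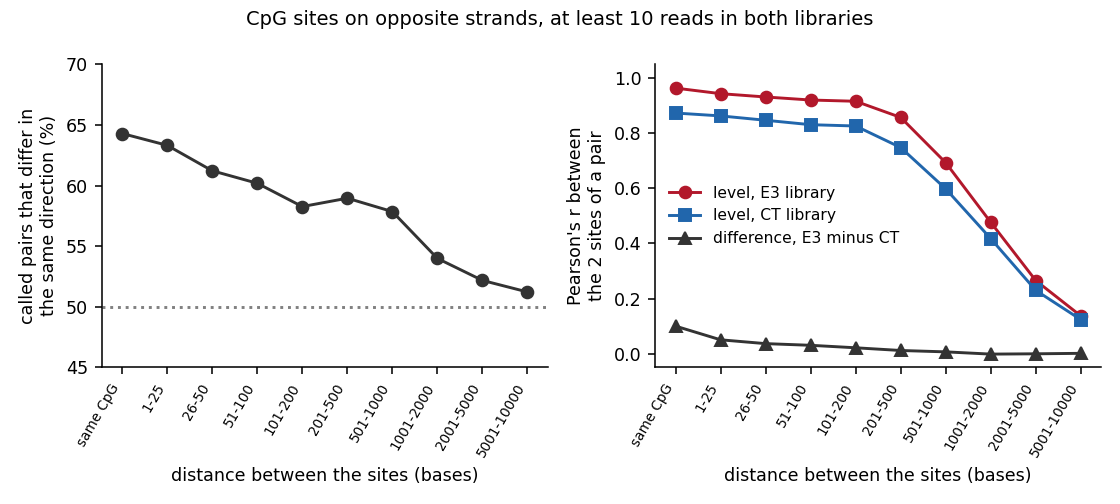
Pairs of CpG sites on opposite strands, by the distance between them in bases. Left, share (%) of pairs with both sites called that differ in the same direction, which runs from 64.3% at the same CpG to 51.2% beyond 5000 and up to 10000 bases (dotted line, 50%). The line is a reference mark, and no expected share was taken. Right, Pearson's r between the 2 sites for the level in E3 (circles), the level in CT (squares) and the difference (triangles).

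Over all CpG sites the mean level was 50.8% in E3 and 50.9% in CT. Single sites were called at 10 points or more and p under 0.05 (Fisher's exact test, not adjusted). By this, 11% of CpG sites were called, 6.18% higher and 4.83% lower. The balance of higher and lower calls differed with CpG density, although the mean difference ran only from -0.22 to 0.14 points over the density classes. The level differed with density too, and CT had fewer reads. The part of level and depth in the direction of calls was not tested. Where the surrounding 1 kb tile held under 10 CpGs, the mean level was 80.3% in E3 and 80.4% in CT, and 8.95% of sites were higher and 4.64% lower. With 80 or more CpGs per tile the means were 3.03% and 3.23%, and 0.59% were higher and 2.79% lower. Repeat-masked DNA, much of it transposon-derived, had a mean of 80.4% in both libraries, with 6.47% of sites higher and 3.01% lower.

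**Figure D3:**
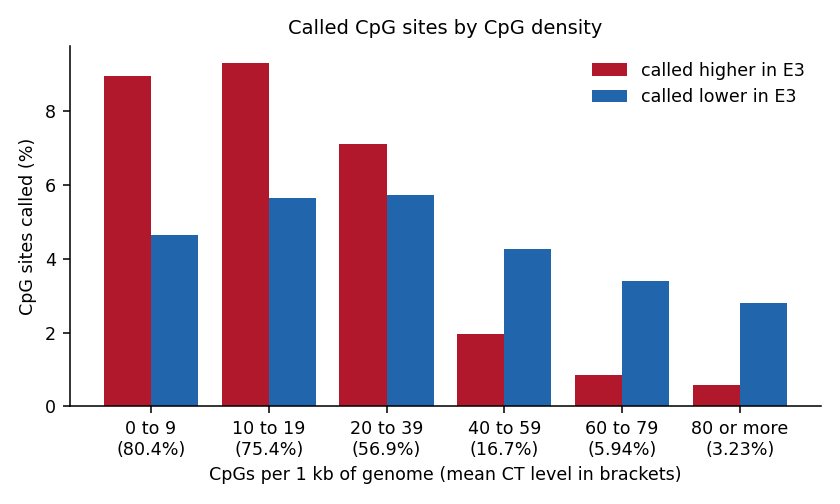
Share (%) of CpG sites called higher (red) or lower (blue) in E3, by the number of CpGs in the 1 kb tile that holds the site, with the mean CT level in brackets. Higher calls outnumber lower ones up to 39 CpGs per tile, and lower calls outnumber higher ones from 40 on.

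The shape of the level distribution differed between the libraries, also at equal depth. At the 1048187 CpG sites with 10 or more reads in both, each library was thinned at random to 10 reads. The share of sites strictly between 0 and 100% was then 46.0% in E3 and 32.6% in CT. Unmethylated sites made up 32.3% and 36.9%, and fully methylated ones 21.7% and 30.5%, while the means were 48.4% and 48.3%. On chromosome X, where most sites were intermediate, 68.3% of sites in E3 and 51.1% in CT lay between 0 and 100%. At this depth 27862 sites were called higher and 21522 lower.

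Outside CpGs, methylation was highest at CAC in both libraries, 4.80% in E3 and 5.18% in CT as a mean over 1443642 sites. CAT followed with 2.93% and 3.06%, CTC with 2.76% and 2.92%, CAG with 2.73% and 2.85% and CAA with 2.54% and 2.61%. The lowest was CCG at 1.63% and 1.66%. Every one of the 12 trinucleotides had the lower mean in E3, by 0.01 to 0.39 points, and the gap was widest at CAC. The share of these values that is unconverted cytosine was not tested, as no unmethylated control DNA is among the values used here.

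**Figure D4:**
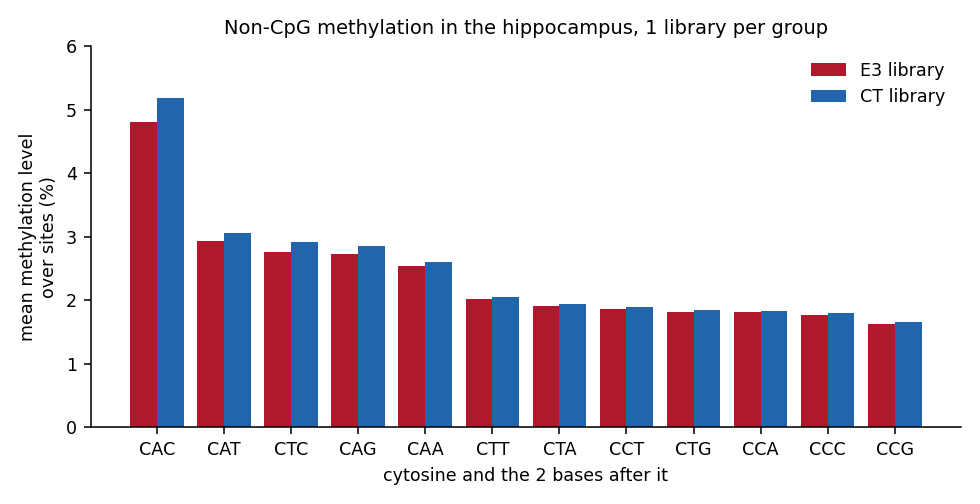
Mean methylation level (%) over non-CpG sites by the cytosine and the 2 bases after it, for the E3 (red) and CT (blue) libraries. CAC stands highest with 4.80% in E3 and 5.18% in CT, and CCG lowest with 1.63% and 1.66%.

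Of the CHG sites, 3.42% were called, 0.254% higher and 3.17% lower. Of the CHH sites, 3.68% were called, 0.319% higher and 3.36% lower. CAC sites were called most often, 0.97% higher and 5.59% lower. The libraries also differed in how methylated reads were spread over sites. After thinning to 10 reads, 84.1% of CHG sites in E3 and 90.3% in CT had no methylated read, 11.8% and 4.33% had exactly 1, and 0.133% and 1.08% had 5 or more, although the means were 2.19% and 2.25%. CHH sites showed the same, with 83.0% and 89.6% at 0 and 0.208% and 1.3% at 5 or more reads. In the thinned reads 1465 CHG sites were higher and 20291 lower, with equal reads in both libraries. The part of this spread in the calls was not tested.

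Across 4701 genes with at least 50 CAC sites, the CAC level over the gene had a median of 4.61% in E3 and 4.89% in CT. Genes ran from 0.377 to 37.3% in E3 and from 0 to 86.7% in CT. The r between the libraries was 0.60, and the part of the extreme genes in it was not tested. Neuronal marker genes had medians of 2.62% and 4.25% (5 genes), and all 5 were lower in E3, with a median difference of -0.67 points. Glutamate and GABA synapse genes had 3.84% and 3.73% (35 genes, median difference -0.11 points), of which 20 were lower. Estrogen receptors and coregulators had 4.13% and 5.42% (13 genes, 9 lower, median difference -0.40 points). Of all 4701 genes 2509 were lower, with a median difference of -0.16 points. The lists with fewer lower than higher genes were chromatin modifiers, imprinted genes and immediate early genes. Chromatin modifiers had 3.53% and 3.63% (5 of 14 lower, median difference 0.62 points). Imprinted genes had 5.07% and 4.39% (2 of 6 lower, 0.69 points), and immediate early genes 3.49% and 3.17% (2 of 5 lower, 1.69 points). In each of the other lists at least as many genes were lower as were higher in E3.

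A promoter reached 1000 bases up- and downstream of a RefSeq transcription start and was tested like a tile. Of 20072 promoters with at least 5 CpG sites, 930 were called higher and 1020 lower, or 9.72%, with a median level of 4.26% in E3 and 4.24% in CT. Of the 17568 with 3 sites a strand, 518 (2.95%) were called and shared the direction on each strand. Chromosome X promoters had medians of 31.2% and 34.9%, and 35.1% of 601 were called, against 8.92% of 19469 on autosomes. Among X promoters with 3 sites a strand, 72 differed by 10 points in the same direction on each strand and 53 in opposite directions.

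Gene bodies (promoters left out, at least 20 CpG sites) were tested in the same way, and 11.3% of 11731 were called. These shares, 9.72% for promoters and 11.3% for gene bodies, are the background for the gene lists.

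Promoters of imprinted genes spread less in E3 than in CT. Of 31 genes, 28 promoters were measured and 11 called, 6 higher and 5 lower, which is 39.3% against the 9.72% of all promoters. 4 of these calls held the direction on each strand. The list had medians of 39.1% in E3 and 25.9% in CT, against 4.26% and 4.24% for all promoters. No share of promoters at like levels was taken. The levels ran from 1.11 to 68.0% in E3 and from 0.647 to 90.7% in CT, with an SD over genes of 19.1 and 26.4 points. Between 30 and 60% lay 15 promoters in E3 and 8 in CT. The summed reads per promoter had a median of 777.5 in E3 and 339.5 in CT, and the part of depth in the spread was not tested.

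The Peg10 and Sgce promoters, which face each other on chromosome 6 and share most of their sites, are methylated on the maternal allele. At Peg10, 48.2% of 666 reads were methylated in E3 (44.4 to 52.0%) and 90.3% of 269 reads in CT (86.2 to 93.3%), with 17 of 26 sites called lower (adjusted p = 5.2e-34, Fisher's exact test). At Sgce the levels were 48.5% and 90.7%. Most of it came from the − strand, with 47.8% and 96.1% at Peg10, while the + strand was at 48.8% and 57.5%. The + strand held 8 sites at each promoter and the smaller part of the CT reads, and differed by -8.71 points. This is under 10 points, so neither call held on each strand.

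Kcnq1ot1, the noncoding RNA that silences its neighbours on the paternal allele, went the other way. Its promoter on chromosome 7 had 49.7% of 575 reads methylated in E3 (45.7 to 53.8%) and 10.2% of 254 in CT (7.08 to 14.6%), with all 13 sites higher, 7 of them called (adjusted p = 8.5e-28, Fisher's exact test). The strands were at 30.0% and 66.0% in E3 and 14.3% and 6.25% in CT. Further calls, named after their values were seen, included Plagl1 (28.5% in E3 and 6.52% in CT), Impact (37.3% and 12.0%), Mcts2 (43.5% and 22.6%), Snrpn (39.97% and 58.97%) and Mest (54.6% and 64.9%). At Mest the strands went apart, by 25.2 points on the + strand and -30.6 on the − strand. The imprinted promoters with the most CpG sites were not called. Gnas had 27.4% and 25.6% over 272 sites, Igf2 3.6% and 1.57%, Rasgrf1 2.65% and 3.43%, and Peg12 14.7% and 5.56%. Of 20 gene bodies of the list 5 were called (25%). Peg3 fell (65.9% and 86.5%), on each strand, and Nnat rose (52.4% and 37.2%).

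**Figure D5:**
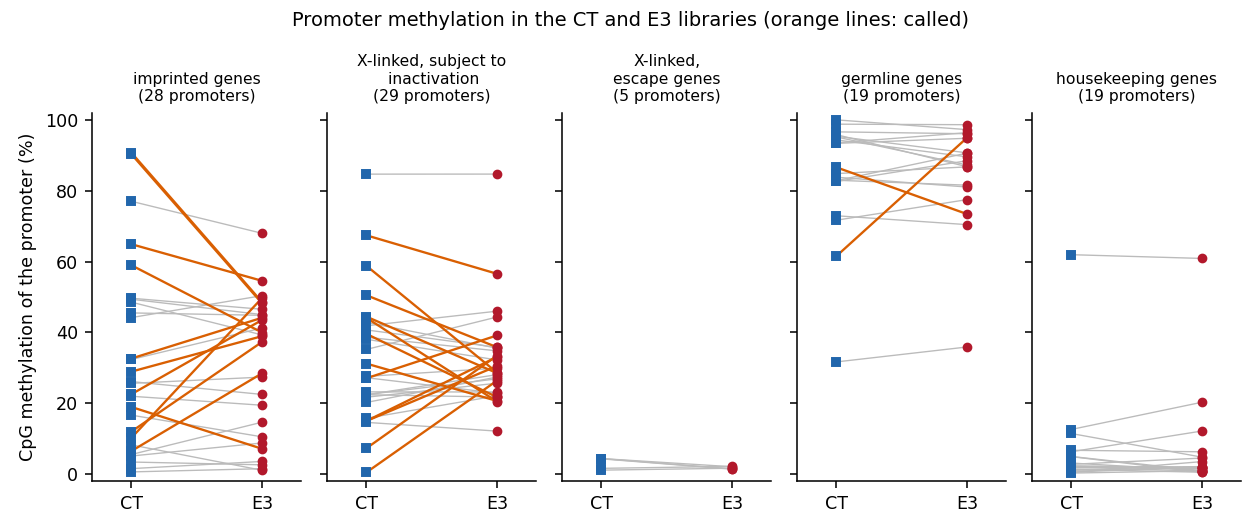
CpG methylation (%) of each measured promoter in the CT (blue squares) and E3 (red circles) libraries, in 5 gene lists. A line joins the 2 values of a promoter and is orange where it was called. Imprinted promoters run from 0.647 to 90.7% in CT and from 1.11 to 68.0% in E3, and the 5 escape promoters stay under 5% in both.

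X-linked genes subject to inactivation showed calls in both directions. All 29 promoters were measured, with medians of 28.7% in E3 and 27.6% in CT, and 12 (41.4%) were called, 5 higher and 7 lower, against 35.1% of all X promoters. For 8 of them both strands had the direction. The levels ran from 12.2 to 84.7% in E3 and from 0.481 to 84.7% in CT, with SDs over genes of 13.5 and 18.2 points. Pdha1, a subunit of pyruvate dehydrogenase, had 28.7% of 1622 reads methylated in E3 (26.5 to 30.9%) and 58.8% of 690 in CT (55.1 to 62.5%), with 33 of 64 sites called lower. Hcfc1, a host cell factor of transcription, had 26.4% of 564 reads in E3 (22.9 to 30.2%) and 1 of 208 reads in CT (0.481%, 0.0849 to 2.67%). Flna, a filamin that crosslinks actin, had 33.5% of 1055 reads in E3 (30.7 to 36.4%) and 7.29% of 288 in CT (4.82 to 10.9%). Each of these differences stood on both strands. Of 18 gene bodies 3 were called (16.7%, against 11.9% of X gene bodies), with Cul4b given below and the chromatin gene Phf6 at 36.9% and 59.4%. As a mean of site levels Phf6 differed by -9.51 points, under the threshold.

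Genes that escape X inactivation stayed low. The 5 promoters measured of 6 had medians of 1.69% in E3 and 4.34% in CT, and 0 were called. Kdm6a, a histone demethylase gene, had 2.11% and 4.42%, Kdm5c, another, 1.42% and 4.34%, Eif2s3x 2.21% and 1.65% and Ddx3x 1.69% and 1.15%. The body of Xist, the RNA that coats the inactive X, was called higher (49.8% and 33.7%), with 26.1 points on the + strand and -4.96 on the − strand. The housekeeping list was also low, with 19 promoters at medians of 1.93% and 2.34% and 0 called. Actb was at 4.55% and 2.78%, Ppia at 1.85% and 2.34%, Eif4a2 at 0.857% and 2.01% and Pgam1 at 0.989% and 3.15%. Of its 7 gene bodies 3 were called (42.9%, against 11.3% of all), among them the ribosomal protein genes Rplp0 (56.1% and 42.0%) and Rpl13a (32.8% and 43.7%). As a mean of site levels Rplp0 differed by 8.19 points, under the threshold.

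Germline genes were highly methylated in both libraries, with medians of 88.5% in E3 and 86.6% in CT over 19 promoters, of which 2 were called (10.5%). Tdrd1, of the piRNA pathway, was at 94.9% and 61.5%, with -6.84 points on the + strand and 61.7 on the − strand, and 14.1 points as a mean of site levels. Ddx4, a germ cell RNA helicase, was at 73.4% and 86.6%, but over sites with 10 or more reads the difference was -1.95 points and was not called. The list members with the most sites, Dazl (70.4% and 72.9%), Taf7l (81.6% and 83.0%) and Slc25a31 (94.8% and 93.4%), were not called.

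Cell type markers were read as a check of the tissue, and a promoter level is no measure of expression. Promoters of 11 neuronal markers had medians of 5.52% in E3 and 4.17% in CT, and those of 24 hippocampal and forebrain transcription factors 3.76% and 4.98%, with 0 called in both lists. Oligodendrocyte lineage (5.02% and 8.39%, 7 promoters), choroid plexus (8.31% and 16.7%, 7 promoters) and blood vessel markers (6.14% and 4.88%, 4 promoters) had 0 called as well. Gene by gene, the median difference (E3 minus CT) was -0.42 points for neuronal, 0.80 for oligodendrocyte lineage and 2.07 for choroid plexus markers. In these lists it thus ran against the list medians. It was -0.82 points for the transcription factors and 1.26 for blood vessel markers. Microglia markers were high, at 72.8% and 70.4%, and 4 of 6 were called (66.7%, against 9.72% of all promoters), 3 higher and 1 lower. All promoters had far lower medians, 4.26% and 4.24%, and no share at like levels was taken. Summed reads per microglia promoter had a median of 266.5 in E3 and 82 in CT. Cx3cr1, the fractalkine receptor, fell (63.0% and 97.9%), P2ry12 rose (60.5% and 40.4%), with the strands in opposite directions and 12.0 points as a mean of site levels, and Spi1 rose (78.7% and 62.2%). These rest on 5, 5 and 13 sites. The part of the cell makeup in any difference was not tested. Of 6 astrocyte markers Gfap was called higher (67.6% and 56.4%), with 8.97 points as a mean of site levels.

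Gene bodies of the marker lists held 0 to 2 calls per list, while 11.3% of 11731 gene bodies were called. Syn1, synapsin of the synaptic vesicle, rose (66.9% and 46.2%), as did Sox10 (45.3% and 23.9%) and Mog (81.4% and 66.4%) of the oligodendrocyte lineage and Pdgfrb of pericytes (64.6% and 49.2%, but 9.07 points as a mean of site levels). C1qa, a complement gene of microglia, fell (36.4% and 56.3%), although none of its 26 sites was called lower and the means of its site levels were 48.2% and 51.5%. Gja1 of astrocytes was called lower (44.4% and 55.3%), yet as a mean of site levels it was 4.91 points higher in E3.

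Of 23 promoters of estrogen receptors and coregulators 1 was called (4.35%, against 9.72% of all promoters). The list had medians of 3.49% in E3 and 3.35% in CT, against 4.26% and 4.24% for all promoters. Whether its share of calls differs from that of all promoters was not tested. Of 21 gene bodies 2 were called (9.52%, against 11.3% of all gene bodies). These were the membrane estrogen receptor gene Gper1 (85.6% and 96.5%) and Esrra (78.6% and 65.7%). As a mean of site levels Esrra differed by 6.57 points, under the threshold. DNA methylation and chromatin modifiers had 0 of 33 promoters called and 3 of 25 gene bodies (12%). The body of the de novo methyltransferase gene Dnmt3b was at 74.5% of 1386 reads in E3 (72.2 to 76.8%) and 90.8% of 521 in CT (88.0 to 93.0%), and that of Ezh2, the Polycomb methyltransferase, at 36.5% and 50.8%. Both stood on each strand, but the means of site levels were 79.9% and 93.6% for Dnmt3b and 57.8% and 61.4% for Ezh2.

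Among 41 promoters of glutamate and GABA synapse genes 2 were called (4.88%), Grik1, a kainate receptor subunit (24.1% and 5.30%, 9 sites on 1 strand), and Grm4, a metabotropic glutamate receptor (61.6% and 46.1% over 106 sites, 15 called higher and 1 lower, with means of site levels of 47.0% and 42.3%). Of 43 gene bodies 6 were called (14%). Gphn, the scaffold protein of inhibitory synapses, was at 66.0% of 7372 reads in E3 and 34.8% in CT. However, 9 of its 135 sites were called higher and 2 lower, and the mean of its site levels was 83.4% and 83.1%. The median site had 34 reads in E3 and 12 in CT, while the sums were 7372 and 5638 reads. Gabra5, a GABA receptor subunit, rose (64.3% and 46.7%) on each strand.

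The stress axis and neuropeptide list had 2 of 22 promoters called (9.09%). Crhr1, the receptor of corticotropin-releasing hormone, was at 22.5% and 37.8%, on each strand, although none of its 46 sites was called and the mean of site levels was 26.9% and 27.2%. Oxt, the oxytocin gene, was at 12.0% and 23.5%, and differed by -5.30 points as a mean of site levels. A further list took genes from the study's primer table, which holds primers for RT-PCR and for chromatin immunoprecipitation (ChIP-qPCR). Of the 51 promoters measured in this list, 4 were called (7.84%). Gas7 and Ngfr, given below, have ChIP-qPCR primers only. Fmr1, the fragile X gene, was at 21.7% of 2338 reads in E3 (20.1 to 23.4%) and 39.6% of 722 in CT (36.1 to 43.2%), with 19 of 93 sites called lower and 1 higher, on each strand. Gas7 was at 39.7% and 56.7%, but differed by -8.76 points as a mean of site levels. Drd2, the D2 dopamine receptor gene, named after its values were seen, was at 8.2% and 20.03%. Of 38 gene bodies in that list 3 were called (7.89%). These were Bdnf, a neurotrophin gene (51.5% and 40.6%) and the tachykinin gene Tac1 (48.3% and 37.6%), both lower in E3 as a mean of site levels (differences of -1.35 and -1.48 points), and, named after its values were seen, Ngfr (28.7% and 38.8%). Immediate early genes had 0 of 20 promoters and 3 of 15 gene bodies (20%) called, all higher. These were Bdnf again, Npas4 (39.9% of 281 reads and 13.6% of 184, but 11.3 points as a mean of site levels) and Fosl2 (40.7% and 28.7%). Fosl2 was not called at 10 or more reads (9.11 points) and differed by 8.55 points as a mean of site levels.

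Over all gene bodies the levels had medians of 75.8% and 75.5%. Of 11731, 730 were called higher and 593 lower, and 405 (3.46%) of 11689 with 3 sites a strand shared the direction on each strand. The 10 largest falls of that kind ran from 26.1 to 39.9 points. Cul4b, a scaffold of ubiquitin ligases on chromosome X, was at 35.2% and 75.1%, with 17 of 34 sites called lower. Hmga1, an architectural chromatin protein, was at 1.70% and 30.5% with 14 of 22 sites called lower and 0 higher. Whether its reads can be told from those of related copies was not tested. Zfp648, a zinc finger gene, was at 17.9% and 48.9%, the clathrin light chain gene Clta at 50.5% and 77.2%, Ddah2, of dimethylarginine breakdown, at 42.9% and 69.8%, and Zfr2 at 41.5% and 67.7%. As means of site levels Ddah2 differed by -17.2 and Zfr2 by -16.4 points. The others were 9230112D13Rik, Gm7276, Gm32374 and the gastric proton pump gene Atp4a, which was at 57.4% and 86.5% but differed by only -2.01 points at 10 or more reads.

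The 10 largest rises ran from 30.4 to 38.7 points. Mab21l1, a developmental gene, was at 66.4% and 27.7%, with 13 of 26 sites called higher and 0 lower. Arrdc5 was at 77.9% and 41.1%, Rab44, a Rab GTPase gene, at 53.8% and 18.1%, Vps37d, of the ESCRT machinery, at 53.8% and 20.9%, and the cytochrome P450 gene Cyp2b13 at 67.04% and 35.8%, with 17 of 41 sites called higher. As a mean of site levels Rab44 differed by 19.7 points. Lonrf1 was at 70.7% and 33.7%, but only 2 of its 37 sites were called and the mean of site levels differed by 2.53 points. Gm52624, A330076C08Rik, Gm41559 and Gphn made up the rest.

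The frontal cortex libraries were set beside the hippocampus tiles. Their tables list called sites only, without depth. Of the 6126 tiles called on both strands in the hippocampus, 401 held such a site. The direction was the same in 195, opposite in 202 and mixed in 4.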

How the data were processed

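Reads of 2 hippocampus libraries were compared, 1 per group. The authors trimmed reads with TrimGalore, aligned them to mm10 with Bismark and extracted calls with MethylDackel. For each cytosine the deposited tables give the read count of each library and the methylated fraction to 2 decimals. Methylated reads were rebuilt as count times fraction, rounded, which is exact up to 100 reads (over 100: 1.18% of CpG sites in E3, 0.184% in CT). Columns holding the authors' own differences, p-values and classes were not used. All sites matched mm10. The deposited frontal cortex tables give the fraction at called sites only.

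Sites with at least 5 reads in both libraries were compared with 2-sided Fisher's exact tests, as in the study's methods (unadjusted p under 0.05, 10 points). Promoters, gene bodies and tiles used summed reads and Benjamini-Hochberg adjustment. Genes and repeat masking came from RefSeq GRCm38.p6 (39732 genes with a transcript). Python 3.11.15, numba 0.67.0 and pysam 0.24.0 were used, and the test was checked against scipy 1.17.1 and on simulated data. Named items follow a rule: the 10 largest rises and falls among tiles, and among gene bodies, called with the same direction on each strand; in each gene list up to 3 called promoters and 2 called gene bodies by size; and 4 imprinted, escape, housekeeping and germline promoters each by number of sites. The members, lists and rule were chosen with earlier results of these data known. Chromosome Y positions and some genes that the rule takes or that were called are not reported here. Alternatives changed the coverage minimum, thresholds, weighting, region size, strands and depth.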

Additional observations from a re-analysis of the deposited data

Results flagged for a closer look

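Of the 20 named tiles, 3 held called frontal cortex sites, and in each the frontal cortex sites went against the hippocampus. The tile 13731 bases from P4ha1 was lower in the hippocampus by 62.8 points (E3 minus CT -62.8), while its 3 listed frontal cortex sites were all higher. The tiles of Rbpms (65.5 points) and Gas2l1 (64.4 points) were higher in the hippocampus and each had 1 listed frontal cortex site, which was lower. With 1 library per group in each tissue, the difference between the tissues was not tested.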

How the results depend on the processing

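No paired analysis was possible because each group has 1 library, and for the same reason no replicate could be left out. Counts are higher, then lower, in E3. CpG sites called, 137630 and 107585, became 79063 and 68667 at 10 or more reads, 20527 and 20664 at 20 or more, 45437 and 29198 with Benjamini-Hochberg adjusted p, and 27862 and 21522 when thinned to 10 reads. CHG sites, 12274 and 153036, had 93218 lower at 10 or more reads, 5896 and 26483 at 20 or more, 6638 higher at 25 points, 506 and 40160 with adjusted p, and 1465 and 20291 thinned. CHH sites, 42816 and 451418, had 270158 lower at 10 or more reads, 18411 and 75821 at 20 or more, 26030 higher at 25 points, 1903 and 119745 with adjusted p, and 5573 and 62010 thinned. The direction of the larger count for CpG sites turned only at 20 or more reads. Promoters went from 930 and 1020 to 610 and 661 with at least 10 CpG sites, and to 255 and 263 with the same direction on each strand. Gene bodies went from 730 and 593 to 189 and 146 with at least 50 sites, 340 and 315 at 10 or more reads, 391 and 314 as means of site levels, and 222 and 183 with the same direction on each strand. Tiles went from 12243 and 11207 to 5692 and 5409 at 10 or more reads and to 3033 and 3093 on each strand. Higher coverage and site minimums test fewer sites or units, while adjusted p, 25 points and means of site levels test the same number. The remaining settings, autosomes alone, summed strands, very deep sites left out, smaller promoters and tiles among them, kept each count within 1.5 times.

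The difference in mean level (E3 minus CT), with no test, was -0.03 points for CpG sites, 2.56 pooled over reads and 0.13 at 20 or more reads. CHG sites gave -0.0746, -0.0688 and -0.0490, and CHH sites -0.0951, -0.233 and -0.0791. Pooled over reads and at 20 or more reads, DNA outside genes gave 2.23 and 0.18 against -0.06, introns 1.26 and 0.44 against 0.08, and exons 1.16 and 0.43 against 0.26. Promoters gave 0.70 pooled against -0.17. The cause was not tested. Of the named regions, as a mean of site levels, 42 of 60 kept a difference of 10 points in their direction, 15 fell short of it, and the gene bodies of Gja1 (4.91 points), Bdnf (-1.35) and Tac1 (-1.48) reversed. At 10 or more reads 30 of 35 kept their call.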
